A study of Arabidopsis thaliana with 5 samples.

Results

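The NPF family (NITRATE TRANSPORTER 1/PEPTIDE TRANSPORTER family) was taken as every gene whose name in the expression tables is NPF followed by a subfamily number and a member number. This rule found 53 genes among 33557 features, and it used no expression value. The subfamilies NPF1 to NPF8 hold 3, 14, 1, 7, 16, 4, 3 and 5 members. The series holds root RNA of Arabidopsis thaliana, in 3 libraries of wild-type Col-0 and 2 of plants with the label GFP-GrxS5. The series asks which genes the glutaredoxin GrxS5 represses. The label pairs green fluorescent protein with GrxS5. The sources used here do not give the construct's promoter, the number of independent lines, the plants' age or their nitrogen supply. GrxS5 itself had 3.06, 4.14 and 3.23 FPKM (fragments scaled to gene length and library size) in the Col-0 libraries and 103 and 124 in the GFP-GrxS5 libraries, so the libraries match their labels. Reads of the native gene and of the fusion were not told apart.

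NPF proteins are membrane carriers that mostly move their cargo together with protons. The family was named for nitrate and for di- and tripeptides. Members are also known to carry chloride, glucosinolates and the hormones abscisic acid, gibberellin, jasmonate and the auxin precursor IBA. In roots they take up nitrate from the soil, load it into the xylem or take it back out, and move it across the vacuolar membrane. GrxS5 belongs to the plant-specific CC-type glutaredoxins, some of which act on TGA transcription factors, and TGA1 and TGA4 are known regulators of nitrate transporter genes.

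Low FPKM values put the libraries at about 3230000 to 4390000 fragments, an estimate from the value of a single fragment. An NPF transcript at 1 FPKM then rests on about 4.71 to 13.6 fragments, depending on its length and library. Whether the libraries stem from separate plants is not in the labels, and p-values here measure only library-to-library spread, which may be technical. They name a pair of library kits and a pair of sequencers, with no assignment to libraries, so a kit effect and the genotype cannot be told apart. The RNA protocol speaks of roots and shoots, while all 5 samples carry the label root. As a check of that label, 18 of 18 root marker genes (hair, endodermis, stele, meristem and cap) were at 1 FPKM or more in every library. In limma 0 of these 18 passed an adjusted p of 0.05, with 2 higher and 1 lower at an unadjusted p under 0.05, while under quantile normalization 1 passed (PLT1, lower). Of all 19693 genes tested 7.08% passed, and 2784 were higher and 2011 lower at an unadjusted p under 0.05 (limma). Photosynthesis genes of the shoot did differ. Of 21 such genes, 19 were tested and 16 were called higher in GFP-GrxS5, against 4.73% of all genes tested. The 19 had a median log2 change of 0.80, against 0.01 over all genes tested. Dropping Col-0 replicate 1, 2 or 3 left 10, 11 or 13 called higher, and dropping GFP-GrxS5 replicate 1 or 2 left 9 or 10. Their summed level was 880 to 1019 FPKM in Col-0 and 1923 to 1936 FPKM in GFP-GrxS5, and RBCS2B, a Rubisco small subunit gene, was listed at 0 in Col-0 replicates 1 and 2. The part of this difference in the NPF results was not tested.

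In Col-0 the most abundant NPF transcripts were those of a pair of nitrate transporters, NPF7.3 and NPF6.3. Both were lower in GFP-GrxS5, though dropping any single Col-0 library ended the call of NPF6.3. Several rarer members rose. Among all 53 genes, 2 exceeded a Col-0 mean of 100 FPKM (NPF7.3 and NPF6.3), 16 lay above 10 and up to 100, 23 above 1 and up to 10, and 5 above 0 and up to 1. Another 7 were listed at 0 in the 3 Col-0 libraries. The summed level of the family was 935, 978 and 1044 FPKM in Col-0 against 952 and 829 FPKM in GFP-GrxS5. These sums overlapped between the genotypes, but their make-up did not. NPF7.3 and NPF6.3 together held 42.4%, 41.6% and 47.3% of the sum in Col-0 against 22.7% and 21.1% in GFP-GrxS5. The other 51 members summed to 538, 571 and 551 FPKM in Col-0 and to 736 and 654 FPKM in GFP-GrxS5. In bulk roots, fewer cells of a type and less RNA per cell cannot be told apart.

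**Figure D1:**
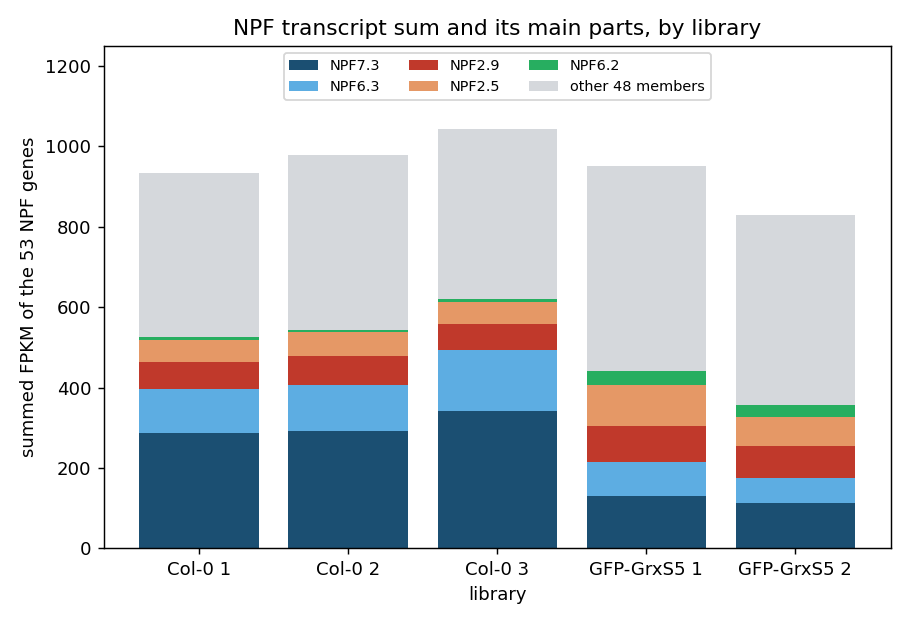
Summed FPKM of the 53 NPF genes (vertical axis, from 0) in each of the 5 libraries, with 5 members coloured and the other 48 in grey. NPF7.3 (dark blue) takes 286 to 341 FPKM of each Col-0 bar and 113 to 131 FPKM of each GFP-GrxS5 bar.

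A gene entered the test when 2 or more of the 5 libraries reached 1 FPKM. This kept 41 of the 53 members, and the 12 others had too little signal. The comparison used limma on log2(FPKM + 1) over all 19693 kept genes, with an adjusted p under 0.05 as the threshold for a call. Of the 41 tested members, 10 passed, which is 24.4%, against 7.08% of all kept genes. The 7 that rose were NPF6.2, NPF5.12, NPF2.4, NPF3.1, NPF2.5, NPF5.1 and NPF8.5, where 4.73% of all kept genes rose. The 3 that fell were NPF7.3, NPF8.4 and NPF6.3, where 2.35% of all kept genes fell. The genotypes did not overlap in 26 of the 41 (63.4%), against 42.8% of all kept genes. GFP-GrxS5 was above in 17 of the 41, against 22.6% of all kept genes. It was below in 9 of the 41, close to the 20.3% of all kept genes. The median log2 change of the tested members was 0.16, and that of all kept genes 0.01. NPF5.4 passed the filter only through its Col-0 libraries. Across the 41 members, Pearson correlations of log2(FPKM + 1) were 0.983 to 0.988 within a genotype and 0.919 to 0.931 between genotypes. Over all 19693 kept genes they were 0.976 to 0.979 and 0.960 to 0.965. These are descriptions across genes of the same libraries.

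**Figure D2:**
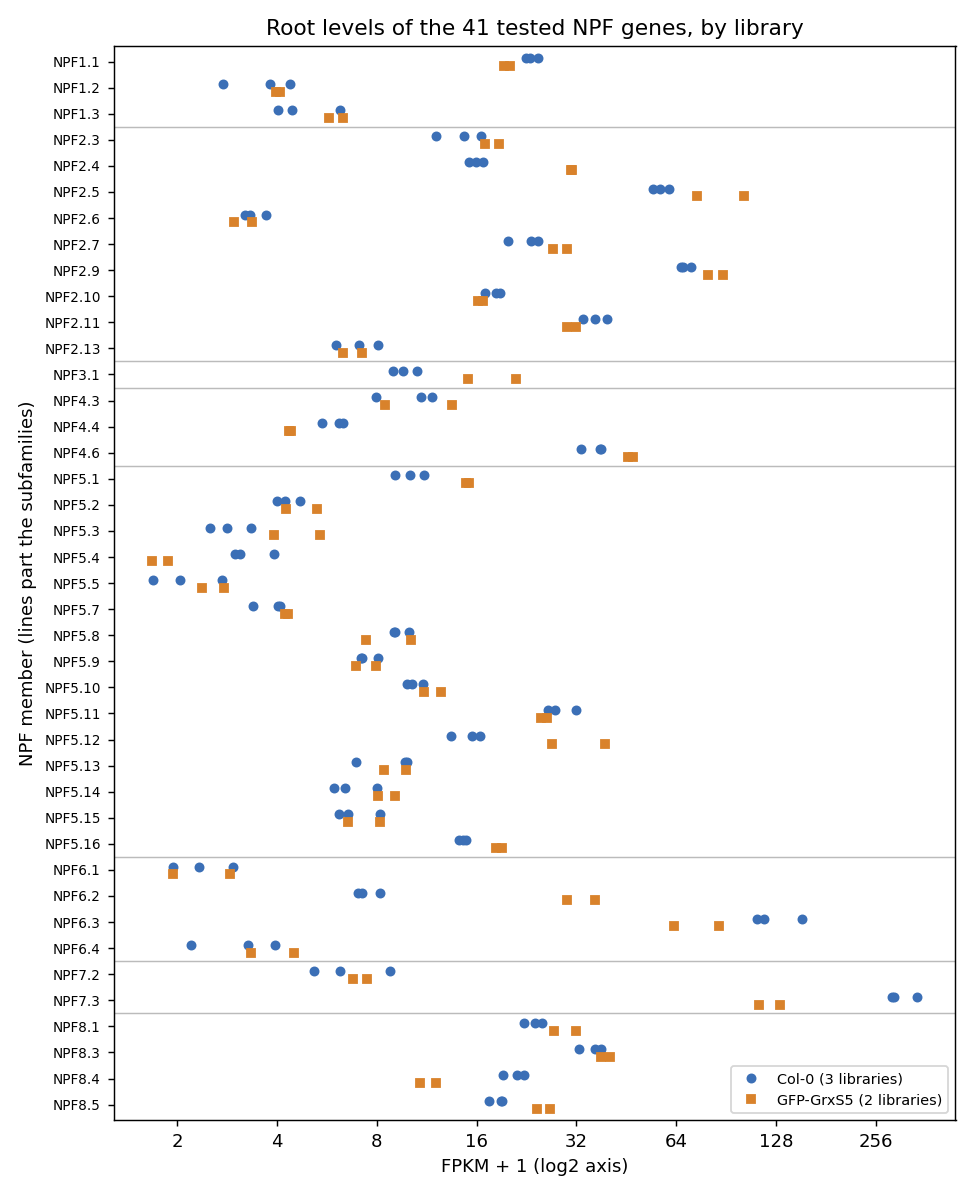
Level of each of the 41 tested NPF members (rows, by subfamily) as FPKM + 1 on a log2 axis, with circles for the 3 Col-0 and squares for the 2 GFP-GrxS5 libraries. NPF7.3 and NPF6.3 sit furthest right and shift left in GFP-GrxS5, while NPF6.2 moves from near 6.48 to near 32.2 FPKM.

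**Figure D3:**
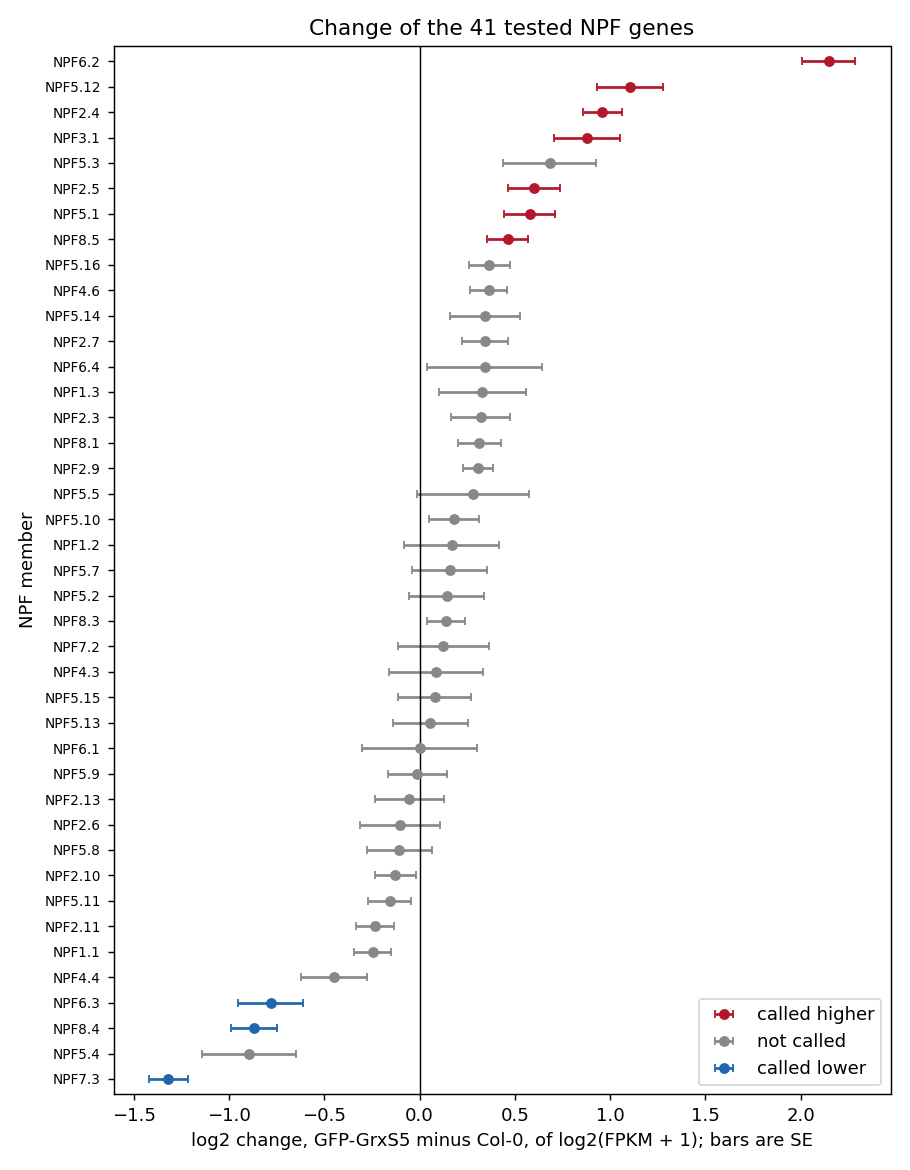
Log2 change of the 41 tested NPF members (GFP-GrxS5 minus Col-0, on log2(FPKM + 1)), ordered by size, with bars of 1 SE and colours for the 7 called higher, the 3 called lower and the 31 not called. NPF6.2 at 2.15 and NPF7.3 at -1.32 mark the ends.

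Of 18 members listed as nitrate carriers, 17 were tested. Among these 2 fell (2.35% of all kept genes did), 3 rose (4.73% of all kept genes did) and 12 did not pass. Their median log2 change was 0.31. The 5 calls became 3 without any single Col-0 library or GFP-GrxS5 replicate 1, and 4 without GFP-GrxS5 replicate 2. NPF7.3 (NRT1.5; AT1G32450; chromosome 1, 11715150 to 11719970, TAIR10) loads nitrate into the root xylem for transport to the shoot. It had 286, 291 and 341 FPKM in Col-0 against 131 and 113 FPKM in GFP-GrxS5. It was the most abundant member in every library, and the groups did not overlap. The level fell by 1.32 on the log2 scale, with an SE of 0.10 (limma, Benjamini-Hochberg adjusted p = 9.56e-04), which is a ratio of means of 0.399. About 2380 to 3161 fragments supported the Col-0 values and 810 to 1234 the GFP-GrxS5 values. NPF7.2 (NRT1.8), its closest namesake, takes nitrate back out of the xylem. It had 4.15, 5.18 and 7.79 FPKM in Col-0 against 6.49 and 5.78 FPKM in GFP-GrxS5, and the groups overlapped.

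NPF6.3 (NRT1.1, CHL1; AT1G12110; chromosome 1, 4105233 to 4109545) is the dual-affinity nitrate transporter and nitrate sensor of the root. It had 111, 117 and 152 FPKM in Col-0 against 85.0 and 62.0 FPKM in GFP-GrxS5. It stood second in rank in each Col-0 library and at rank 4 in each GFP-GrxS5 library. The fall was 0.78 on the log2 scale, with an SE of 0.17 (limma, Benjamini-Hochberg adjusted p = 0.0382). Leaving out Col-0 replicate 1, 2 or 3 or GFP-GrxS5 replicate 2 ended this call (limma, adjusted p = 0.0577, 0.0733, 0.0745 and 0.158), and the 13 alternatives spanned 0.0280 to 0.158.

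NPF6.2 (NRT1.4; AT2G26690; shared locus on chromosome 2, 11347147 to 11351293) rose the most of the family. It is known for nitrate storage in the leaf petiole. It had 6.02, 6.21 and 7.19 FPKM in Col-0 against 35.3 and 29.0 FPKM in GFP-GrxS5. Every GFP-GrxS5 value was above 4 times the highest Col-0 value. The rise was 2.15 on the log2 scale, with an SE of 0.14 (limma, Benjamini-Hochberg adjusted p = 6.15e-04). It moved from ranks 25 to 27 in the family to rank 8 in both GFP-GrxS5 libraries. Its locus is shared with AT2G26692, which was listed at no more than 1.49 FPKM. The shoot photosynthesis genes rose in the same libraries, as given above, and their part in this rise was not tested. The rarer members of the subfamily, NPF6.4 and NPF6.1, did not pass. NPF6.4 (NRT1.3) had 2.27, 1.2 and 2.95 FPKM in Col-0 against 3.495 and 2.33 FPKM in GFP-GrxS5, and NPF6.1 had means of 1.40 and 1.41 FPKM. The genotypes overlapped in both.

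Another 8 tested nitrate carriers, from NPF2.9 to NPF5.5 as follows, did not pass. NPF2.9 (NRT1.9), which acts in root companion cells to load nitrate into the phloem, had 66.1, 69.9 and 65.2 FPKM in Col-0 against 87.6 and 79.0 FPKM in GFP-GrxS5. NPF4.6 (NRT1.2, AIT1), a low-affinity nitrate importer of the root that also imports abscisic acid, had 36.9, 36.8 and 32.04 FPKM in Col-0 against 46.3 and 44.8 FPKM in GFP-GrxS5. Both lay above Col-0 in each GFP-GrxS5 library and missed the threshold (log2 changes 0.31 and 0.36, limma, Benjamini-Hochberg adjusted p = 0.0658 and 0.0665). Neither was called in any of the 13 alternatives, and with the replicate block their adjusted p were 0.226 and 0.214 (limma). NPF2.9 shares its locus with CPK10, a kinase gene at 14.0 to 16.7 FPKM. NPF2.7 (NAXT1), which exports nitrate from the root, had means of 21.6 ± 2.42 FPKM (SD, n = 3) and 27.6 ± 2.05 FPKM (SD, n = 2). NPF2.3, which moves nitrate to the xylem under salt, had 13.4 ± 2.23 and 16.9 ± 1.26 FPKM. In both the groups did not overlap, but neither passed (limma, Benjamini-Hochberg adjusted p = 0.140 and 0.256). NPF1.1 and NPF1.2 (NRT1.12 and NRT1.11), which move nitrate from xylem to phloem in leaves, had means of 22.4 and 18.7 FPKM and of 2.64 and 3.02 FPKM in Col-0 and GFP-GrxS5. The seed carrier NPF2.12 (NRT1.6) was listed at 0 in all libraries. NPF2.13 (NRT1.7), of leaf phloem, had 6.05 and 5.76 FPKM, and NPF5.5, of embryos, 1.15 and 1.57 FPKM.

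A set of 3 nitrate carriers of the vacuolar membrane, NPF5.11, NPF5.12 and NPF5.16, is known to release nitrate from the vacuole. Of these NPF5.12 alone passed. NPF5.12 (also TOB1, an IBA carrier; AT1G72140; chromosome 1, 27141814 to 27144490) had 12.4, 15.4 and 14.5 FPKM in Col-0 against 38.0 and 25.9 FPKM in GFP-GrxS5. It rose by 1.104 on the log2 scale, with an SE of 0.17 (limma, Benjamini-Hochberg adjusted p = 0.0122). Leaving out GFP-GrxS5 replicate 1 ended the call (limma, adjusted p = 0.0566), and the 13 alternatives spanned 0.00950 to 0.0566. NPF5.16 had 13.5, 13.8 and 13.1 FPKM in Col-0 against 18.1 and 17.3 FPKM in GFP-GrxS5, without overlap but below the threshold (limma, adjusted p = 0.0858). NPF5.11 had 26.6, 30.9 and 25.3 FPKM in Col-0 against 25.2 and 23.9 FPKM in GFP-GrxS5 (limma, adjusted p = 0.434). NPF5.11 and NPF5.12 are neighbours on chromosome 1, in an array of 4 genes with NPF5.14 and NPF5.13. In Col-0 NPF5.11 was the higher of these neighbours in every library, and in GFP-GrxS5 NPF5.12 was the higher in each. The difference between their changes was not tested. NPF5.14 had means of 5.78 and 7.55 FPKM and NPF5.13 of 7.84 and 8.101 FPKM, and neither passed. GFP-GrxS5 lay above Col-0 without overlap in NPF5.14, and the groups overlapped in NPF5.13. NPF5.13 and NPF5.14 share a coding run of 52 identical bases, so how their reads were divided is uncertain.

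The chloride carriers NPF2.4 and NPF2.5 were both called higher, where 4.73% of all kept genes rose. NPF2.4 loads chloride into the root xylem and NPF2.5 exports chloride from the root. NPF2.4 (AT3G45700; chromosome 3, 16778713 to 16781198) had 14.9, 15.7 and 14.2 FPKM in Col-0 against 29.7 and 30.1 FPKM in GFP-GrxS5. Its groups were far apart relative to their spread, and the log2 level rose by 0.96 (SE 0.10; limma, Benjamini-Hochberg adjusted p = 0.00297). NPF2.5 (AT3G45710; chromosome 3, 16782643 to 16784735) had 56.3, 59.96 and 53.6 FPKM in Col-0 against 102 and 73.0 FPKM in GFP-GrxS5. It rose by 0.60 (SE 0.14; limma, Benjamini-Hochberg adjusted p = 0.0446), and the size rested on GFP-GrxS5 replicate 1. Without that library the log2 change was 0.36 and the call was lost (limma, adjusted p = 0.128). Leaving out Col-0 replicate 1, 2 or 3 ended it too (limma, adjusted p = 0.111, 0.0843 and 0.114), and the 13 alternatives spanned 0.0151 to 0.128.

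NPF2.4 and NPF2.5 are neighbours in an array of 7 NPF2 genes on chromosome 3, read in the same direction. In chromosome order the array holds NPF2.7, NPF2.6, NPF2.3, NPF2.2, NPF2.4, NPF2.5 and NPF2.1. Coding sequences of NPF2.4 and NPF2.5 match at 88.3% of aligned bases, with a longest identical run of 42 bases. NPF2.6 had means of 2.41 and 2.17 FPKM in Col-0 and GFP-GrxS5. NPF2.1 stayed at or below 0.319 FPKM in every library, and NPF2.2 was listed at 0. NPF2.6 and NPF2.7 share the longest identical coding run of the family, 68 bases, and 4 of 1378 member pairs share 50 or more. The sources used here do not give the read length, so the split of reads within such pairs is uncertain.

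**Figure D4:**
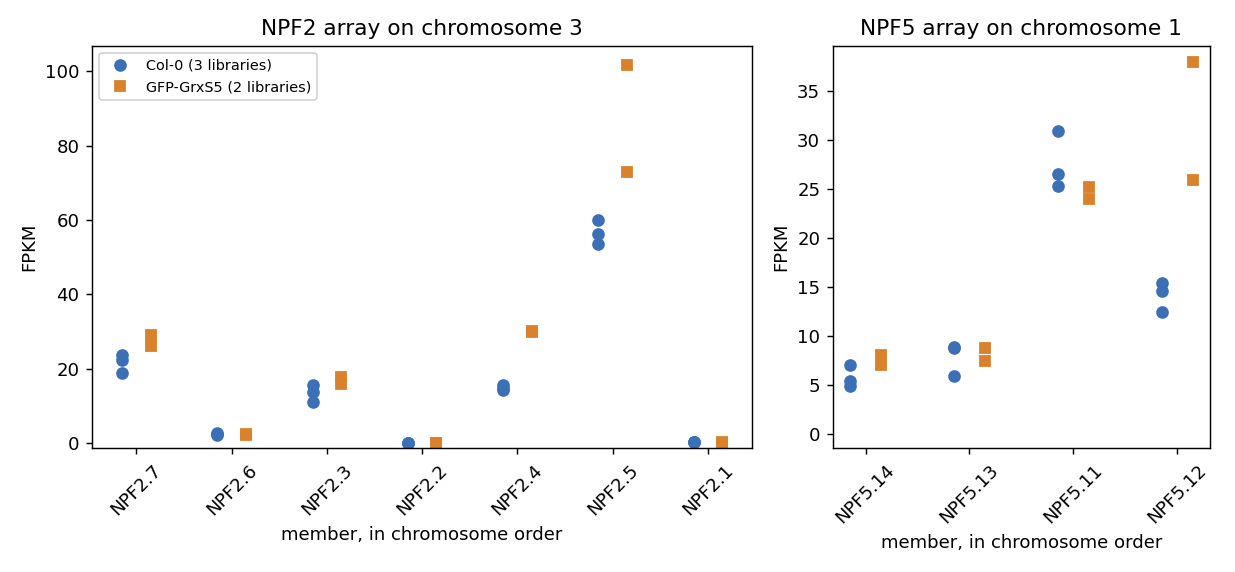
FPKM (vertical axis) of the 7 members of the NPF2 array and the 4 members of the NPF5 array, in chromosome order, with circles for the 3 Col-0 and squares for the 2 GFP-GrxS5 libraries. NPF2.4, NPF2.5 and NPF5.12, which were called higher, lie above Col-0. So do NPF2.3, NPF2.7 and NPF5.14, which were not called, while NPF2.2 and NPF2.1 stay near 0.

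The promoters of this pair that rose together are shown with GAATC, the core bound by the NIGT1/HHO repressors of nitrate genes, in capitals. Each window runs from 250 bases before to 50 bases after the gene start in RefSeq, on TAIR10.1, on the plus strand. NPF2.4 lies at chr3:16778463-16778762 and NPF2.5 at chr3:16782338-16782637.
NPF2.4: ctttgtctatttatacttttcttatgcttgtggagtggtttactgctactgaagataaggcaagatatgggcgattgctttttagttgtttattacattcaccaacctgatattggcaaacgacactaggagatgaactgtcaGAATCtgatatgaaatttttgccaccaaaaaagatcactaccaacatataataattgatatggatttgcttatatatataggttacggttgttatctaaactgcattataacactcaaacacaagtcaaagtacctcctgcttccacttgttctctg
NPF2.5: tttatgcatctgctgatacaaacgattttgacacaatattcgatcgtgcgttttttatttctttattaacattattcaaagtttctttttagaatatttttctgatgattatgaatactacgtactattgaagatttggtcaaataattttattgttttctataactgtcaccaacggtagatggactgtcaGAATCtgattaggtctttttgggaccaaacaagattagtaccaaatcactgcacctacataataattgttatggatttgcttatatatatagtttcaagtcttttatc
Each window held 1 match to GAATC, searched on both strands. The match fell in a run of 16 bases that the promoters share, actgtcaGAATCtgat, which starts 114 bases before the start of NPF2.4 and 65 bases before that of NPF2.5. A longer shared run of 23 bases, tatggatttgcttatatatatag, holds no match. GAATC was found in 45.1% of all 27443 protein-coding promoters of this length and in 21 of the 53 NPF promoters (39.6%). It was in 3 of the 7 called higher (42.9%), 0 of the 3 called lower and 12 of the 31 not called (38.7%). The windows of NPF6.2, NPF5.12, NPF5.1 and NPF8.5, also called higher, held none. A match is a description of these letters and not a bound site.

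Hormone carriers rose where they passed. Of 14 members on this list, which includes nitrate carriers named above, 9 were tested. In limma 4 rose (4.73% of all kept genes did), 0 fell and 5 did not pass, with 6 higher and 0 lower at an unadjusted p under 0.05. Without GFP-GrxS5 replicate 1 this count was 0, without GFP-GrxS5 replicate 2 it was 3, and without any single Col-0 library it was 1 (NPF5.12). The median log2 change was 0.58. Of all 19693 kept genes, 2784 were higher and 2011 lower at an unadjusted p under 0.05 (limma). NPF5.12 and NPF2.5 are described above. NPF3.1 (AT1G68570; shared locus on chromosome 1, 25746736 to 25750275) carries gibberellin and also nitrate and nitrite. It had 7.94, 8.58 and 9.56 FPKM in Col-0 against 20.0 and 14.0 FPKM in GFP-GrxS5. The groups did not overlap, but the GFP-GrxS5 libraries were further apart than those of Col-0. It rose by 0.88 on the log2 scale, with an SE of 0.17 (limma, Benjamini-Hochberg adjusted p = 0.0263). Leaving out Col-0 replicate 1, 2 or 3 or GFP-GrxS5 replicate 1 ended the call (limma, adjusted p = 0.0776, 0.0712, 0.0534 and 0.119), and the 13 alternatives spanned 0.0214 to 0.119. AT1G68568, on the same locus, was at or below 1.39 FPKM.

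NPF5.1 (AT2G40460; chromosome 2, 16896907 to 16901280), reported to carry abscisic acid, had 9.04, 10.1 and 8.07 FPKM in Col-0 against 14.1 and 13.8 FPKM in GFP-GrxS5. It rose by 0.58 (SE 0.14; limma, Benjamini-Hochberg adjusted p = 0.0484), just inside the threshold. Dropping any single library ended the call, with adjusted p (limma) of 0.117, 0.0678 and 0.114 for Col-0 replicates 1, 2 and 3 and of 0.160 and 0.149 for GFP-GrxS5 replicates 1 and 2. The 13 alternatives spanned 0.0393 to 0.173. NPF5.3 had 1.81, 1.502 and 2.33 FPKM in Col-0 against 4.38 and 2.92 FPKM in GFP-GrxS5, without overlap and without a call (limma, adjusted p = 0.143). Its near relative NPF5.2 (PTR3) had means of 3.30 and 3.76 FPKM, with overlap. The abscisic acid or gibberellin carriers NPF4.2 and NPF4.5 and the vacuolar NPF2.14 were listed at 0 in all libraries. NPF4.1 stayed at or below 0.154 FPKM.

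Peptide carriers went both ways. Of 6 members 5 were tested. Among these 1 rose (4.73% of all kept genes did), 1 fell (2.35% of all kept genes did) and 3 did not pass. NPF8.4 (PTR4; AT2G02020; chromosome 2, 479101 to 481185), a peptide carrier of the vacuolar membrane, had 21.3, 20.1 and 18.2 FPKM in Col-0 against 11.1 and 9.76 FPKM in GFP-GrxS5. The groups were well apart. It fell by 0.87 on the log2 scale, with an SE of 0.12 (limma, Benjamini-Hochberg adjusted p = 0.00829). NPF8.5 (PTR6; AT1G62200; chromosome 1, 22982036 to 22984359), another carrier of the vacuolar membrane, had 16.4, 18.0 and 18.1 FPKM in Col-0 against 23.3 and 25.7 FPKM in GFP-GrxS5. In Col-0 NPF8.4 was the higher of this pair in every library, and in GFP-GrxS5 NPF8.5 was the higher in both. The peptide carrier NPF8.3, given below, was above the pair in every library. The rise of NPF8.5 was 0.46 (SE 0.11; limma, Benjamini-Hochberg adjusted p = 0.0445). Dropping any single library ended this call, with adjusted p (limma) of 0.119, 0.1003 and 0.0900 for Col-0 replicates 1, 2 and 3 and of 0.0969 and 0.181 for GFP-GrxS5 replicates 1 and 2. The 13 alternatives spanned 0.0340 to 0.181.

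The plasma membrane peptide importer NPF8.1 (PTR1) had 24.3, 23.0 and 21.2 FPKM in Col-0 against 30.9 and 26.4 FPKM in GFP-GrxS5, without overlap and without a call (limma, Benjamini-Hochberg adjusted p = 0.139). NPF8.3 (PTR2), which lies next to NPF8.4 on chromosome 2, had 31.5, 36.9 and 35.4 FPKM in Col-0 against 39.4 and 36.9 FPKM in GFP-GrxS5, and these groups overlapped (limma, adjusted p = 0.436). The neighbours NPF8.4 and NPF8.3 thus had log2 changes of -0.87 and 0.14, a difference that was not tested. NPF8.2 (PTR5), known from pollen, stayed at or below 0.345 FPKM.

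Glucosinolate carriers did not pass. NPF2.10 and NPF2.11 (GTR1 and GTR2), which import glucosinolates into cells, had means of 17.0 and 35.5 FPKM in Col-0 and of 15.4 and 30.0 FPKM in GFP-GrxS5. Both lay below every Col-0 library. With NPF2.9, given above, the list had 0 calls in limma among 3 tested members. At an unadjusted p under 0.05 (limma) 1 was higher and 0 were lower. Of all 19693 kept genes 7.08% were called, and 2784 were higher and 2011 lower at that unadjusted p.

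No member without a settled cargo in these lists was called. NPF5.4 (AT3G54450) had 1.97, 2.8997 and 2.09 FPKM in Col-0 against 0.674 and 0.872 FPKM in GFP-GrxS5, some 16 to 20 fragments against 5. The groups did not overlap, and the log2 change of -0.90 missed the threshold (limma, Benjamini-Hochberg adjusted p = 0.0763), which it passed only with no variance trend (limma, adjusted p = 0.0485) in a range of 0.0485 to 0.220. Its locus is shared with AT3G54460, at 5.59 to 7.84 FPKM. NPF4.4 had 5.33, 5.13 and 4.46 FPKM in Col-0 against 3.40 and 3.33 FPKM in GFP-GrxS5, without overlap and without a call (limma, adjusted p = 0.164). NPF4.3, NPF5.7, NPF5.8, NPF5.9, NPF5.10, NPF5.15 and NPF1.3 had log2 changes between -0.11 and 0.33, and none passed (limma, adjusted p from 0.420 to 0.976). Of these, NPF5.7 and NPF5.10 lay above Col-0 without overlap, and the others overlapped. Below the filter, NPF5.6 had 0.529, 0.460 and 0.559 FPKM in Col-0 against 0.949 and 0.877 FPKM in GFP-GrxS5, and NPF4.7 had 0.644, 0.448 and 0.680 FPKM against 0 and 0.171. Neither was tested. NPF7.1 was listed at 0 throughout, and NPF2.8 was listed at 0 in all libraries except GFP-GrxS5 replicate 1, at 0.278 FPKM.

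The promoters of the 3 members that fell were searched for TGACG, the core of TGA factor binding sites, and for GAATC, on both strands. They are shown because the series asks what GrxS5 represses. Neither motif was found in these windows, so all letters are in lower case. NPF7.3 lies at chr1:11719939-11720238 on the minus strand, NPF6.3 at chr1:4104973-4105272 on the plus strand and NPF8.4 at chr2:478727-479026 on the plus strand, all on TAIR10.1.
NPF7.3: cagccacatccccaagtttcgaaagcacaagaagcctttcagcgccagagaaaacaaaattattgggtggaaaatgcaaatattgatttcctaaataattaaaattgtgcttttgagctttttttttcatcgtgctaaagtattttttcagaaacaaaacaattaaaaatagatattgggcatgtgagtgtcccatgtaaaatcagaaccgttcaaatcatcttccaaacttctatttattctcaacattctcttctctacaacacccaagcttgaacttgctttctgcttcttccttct
NPF6.3: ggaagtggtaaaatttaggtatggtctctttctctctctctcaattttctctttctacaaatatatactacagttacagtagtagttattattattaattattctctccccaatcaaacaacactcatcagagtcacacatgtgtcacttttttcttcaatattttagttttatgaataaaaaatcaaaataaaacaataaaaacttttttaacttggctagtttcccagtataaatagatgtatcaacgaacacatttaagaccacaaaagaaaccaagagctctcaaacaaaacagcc
NPF8.4: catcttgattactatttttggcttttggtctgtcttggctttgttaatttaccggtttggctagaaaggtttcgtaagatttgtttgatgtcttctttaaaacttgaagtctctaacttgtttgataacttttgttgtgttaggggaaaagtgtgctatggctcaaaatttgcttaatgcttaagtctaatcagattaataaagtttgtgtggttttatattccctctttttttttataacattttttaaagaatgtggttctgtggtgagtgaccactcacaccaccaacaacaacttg
TGACG was found in 23.1% of the 27443 protein-coding promoters and in 7 of the 53 NPF promoters (13.2%), namely NPF1.1, NPF1.3, NPF3.1, NPF5.2, NPF6.1, NPF7.2 and NPF8.3. Of these NPF3.1 alone was called. Its window at chr1:25746447-25746746 on the plus strand is shown with TGACG (here as its reverse complement, CGTCA) and GAATC in capitals.
NPF3.1: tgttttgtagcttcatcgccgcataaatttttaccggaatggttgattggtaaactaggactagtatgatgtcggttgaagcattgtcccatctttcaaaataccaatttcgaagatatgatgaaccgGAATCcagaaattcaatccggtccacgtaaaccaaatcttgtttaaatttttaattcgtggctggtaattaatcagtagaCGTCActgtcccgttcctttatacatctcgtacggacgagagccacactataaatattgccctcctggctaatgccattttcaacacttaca
The CGTCA begins 42 bases before the gene start. Of the 6 windows shown NPF3.1 alone held both motifs, and they did not overlap there. The absence of a match says only that these letters are not in a window of 300 bases.

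Regulators of the NPF nitrate carriers were tested from a list of 10 genes. In limma 1 rose, 0 fell and 9 did not pass, with 2 higher and 1 lower at an unadjusted p under 0.05. Of all 19693 kept genes 4.73% rose and 2.35% fell, and 2784 were higher and 2011 lower at that unadjusted p. MYB59 (AT5G59780), known as an activator of NPF7.3, had 170, 169 and 172 FPKM in Col-0 against 255.7 and 278 FPKM in GFP-GrxS5. It rose by 0.64 on the log2 scale, with an SE of 0.07 (limma, Benjamini-Hochberg adjusted p = 0.00298) in the libraries where NPF7.3 fell. CIPK23, the kinase that phosphorylates NPF6.3, had 33.1, 39.1 and 35.2 FPKM in Col-0 against 45.6 and 49.0 FPKM in GFP-GrxS5 (limma, adjusted p = 0.0592). TGA4 had a log2 change of -0.26 (limma, adjusted p = 0.171), and its locus is shared with other genes.

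Of 15 nitrate transport genes outside the family 11 were tested, of which 5 fell and 1 rose, with a median log2 change of -0.48. Of all kept genes 2.35% fell and 4.73% rose. The genes that fell were NRT2.6, CLCb, NRT2.1, NRT3.1 and SLAH1, and SLAH1 passed the filter on low values only through Col-0. Dropping Col-0 replicate 1, 2 or 3 left 4, 1 or 3 of the list called lower, and without either GFP-GrxS5 library NRT2.6 alone was. Leaving out Col-0 replicate 2 or GFP-GrxS5 replicate 1 or 2 ended the calls of NRT2.1 (limma, adjusted p = 0.0564, 0.0595 and 0.143) and NRT3.1 (limma, adjusted p = 0.0762, 0.1003 and 0.176). SLAH1 lost its call without these (limma, adjusted p = 0.0628, 0.106 and 0.0564) and without Col-0 replicate 3 (limma, adjusted p = 0.0663). NRT2.6, of the high-affinity NRT2 family, had 38.4, 35.4 and 31.7 FPKM in Col-0 against 16.2 and 13.3 FPKM in GFP-GrxS5 (limma, Benjamini-Hochberg adjusted p = 0.00298). The vacuolar exchanger genes CLCa and CLCb went in opposite directions. CLCa rose from 41.7 ± 1.79 FPKM (SD, 3 libraries) to 69.8 ± 12.7 FPKM (SD, 2 libraries) and CLCb fell from 58.3 ± 2.22 to 43.6 ± 0.0570 FPKM, with Benjamini-Hochberg adjusted p of 0.0141 and 0.0237 (limma). Leaving out GFP-GrxS5 replicate 1 ended the call of CLCa (limma, adjusted p = 0.0573), whose alternatives spanned 0.0116 to 0.0617. For CLCb this held for each library, with adjusted p (limma) of 0.0726, 0.0551 and 0.0740 for Col-0 replicates 1, 2 and 3 and of 0.0897 and 0.0912 for GFP-GrxS5 replicates 1 and 2, within 0.0159 to 0.118 over all alternatives. By subfamily, the summed level of NPF7 was 290, 296 and 349 FPKM in Col-0 against 137 and 119 FPKM in GFP-GrxS5. That of NPF2 was 226, 245 and 233 FPKM against 319 and 278 FPKM, and that of NPF5 117, 123 and 120 FPKM against 157 and 141 FPKM. These subfamily sums did not overlap between the genotypes. The same held for NPF3, NPF4 and NPF8, higher in GFP-GrxS5, and for NPF1, lower there. NPF3 had 7.94 to 9.56 FPKM in Col-0 against 14.0 to 20.0 FPKM in GFP-GrxS5, and NPF4 47.9 to 52.4 against 55.9 to 62.3 FPKM. NPF8 had 93.3 to 98.3 against 99.1 to 105 FPKM, and NPF1 27.3 to 29.8 against 26.7 to 26.8 FPKM. Among single genes, 42.8% of all kept genes did not overlap either. NPF6 sums did overlap, at 121, 125 and 165 FPKM against 125 and 95.2 FPKM, with NPF6.3 lower and NPF6.2 higher.

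NPF6.2, NPF7.3, NPF2.4 and NPF8.4 kept their calls in all 13 alternatives, which include leaving out each library in turn. Their highest adjusted p there was 0.00972, 0.0169, 0.0239 and 0.0493 (limma, Benjamini-Hochberg). NPF5.12 kept its call in 12 of the 13, NPF3.1 and NPF6.3 in 6, NPF2.5 and NPF8.5 in 4 and NPF5.1 in 3. Without Col-0 replicates 1, 2 and 3 and GFP-GrxS5 replicate 1 in turn 5 members were called, and without GFP-GrxS5 replicate 2 there were 7. With no filter or with the replicate block NPF6.3, NPF2.5, NPF3.1, NPF5.1 and NPF8.5 were not called. All 10 called members kept their direction in each of the 13 alternatives.

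**Figure D5:**
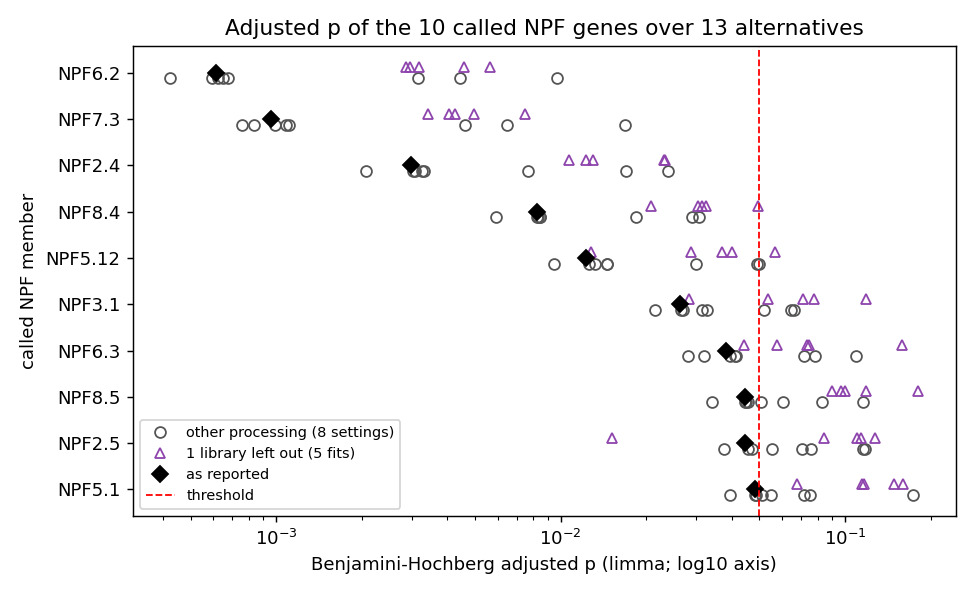
Benjamini-Hochberg adjusted p (limma, log10 axis) of the 10 called NPF members as reported (diamonds), under 8 other processing settings (circles) and with 1 library left out (triangles); the dashed line is the threshold of 0.05. NPF6.2, NPF7.3, NPF2.4 and NPF8.4 stay left of the line throughout.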

How the data were processed

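RNA-seq libraries from roots (3 of Col-0, 2 of GFP-GrxS5) were analysed from gene-level FPKM as deposited by the authors, with 1 table per library. Per the labels' protocols, 1 µg of total RNA entered each library. The genome build was TAIR10, per the submitters' processing notes. The sources used here do not give the aligner, the quantifier, strand use or the treatment of reads shared by similar genes. FPKM was fitted as log2(FPKM + 1) with no further scaling, by limma 3.58.1 in R 4.3.3, with variances that follow a trend on expression. Kept genes had FPKM of at least 1 in at least 2 libraries and status OK in each, and p-values (two-sided) were adjusted by Benjamini-Hochberg over all 19693 of them. Log2 changes on this scale understate the change of low genes. The fit was tested on simulated data. A locus is shared with another gene for 11 of the 53 members (NPF3.1 and NPF6.2 among the called ones), so their read shares are uncertain. Depth was estimated from the lowest FPKM values of single-transcript genes of 1500 to 4000 bases, and no count model was fitted. The deposited FPKM bounds equal the FPKM values and were not used. Promoter and coding sequences came from RefSeq on TAIR10.1. Among the files' genes with a locus of their own, 23942 have an identifier found there, and each overlaps the gene of that identifier. Start and end are identical for 4453 of these. By identifier, 53 of 53 members matched. Gene coordinates are printed as the files give them (TAIR10).

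Groups and replicate numbers came from the sample titles. Named were all called members, non-overlapping ones with a 1.5-fold difference of means, the most abundant ones and the role lists, and, of each list outside the family, up to 3 genes with the smallest p. NRG2 was dropped from the regulators because no table used here pairs that name with a gene. Members and lists were chosen with earlier results of these data known. No replicate pairing was assumed, and the closing section gives 13 alternatives.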

Additional observations from a re-analysis of the deposited data

How the results depend on the processing

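Tried were lower pseudocounts (0.1, 0.5), other filters (none, 5 FPKM), median-of-ratios and quantile scaling, a fit with no variance trend, a replicate block and the loss of each library, 13 alternatives in all. The count of NPF members called, 10 as reported (7 higher, 3 lower), was 5 with no filter (3 higher), 6 with no variance trend (3 higher), 7 under quantile normalization (4 higher) and 5 with the replicate block (3 higher). Leaving out 1 library gave 5 to 7 called, 2 to 5 higher and 2 to 3 lower; where this left a lone GFP-GrxS5 library, it was assumed to vary like Col-0. Over all kept genes, 1394 calls (932 higher, 462 lower) became 582 (398 and 184) with no variance trend and 594 (418 and 176) with the replicate block, and ran from 521 to 821 (313 to 594 higher, 192 to 242 lower) without 1 library. Higher genes made up 66.9% of all calls, and 54.9% under quantile normalization (789 higher, 648 lower). The labels do not say whether same-numbered libraries share more than the number. Their deviations correlated at -0.039 and -0.008. Deviations in a pair of GFP-GrxS5 libraries mirror each other, so these values cannot decide whether batches were shared. The cause of these shifts was not tested.

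Signs turned in 10 uncalled members. Under the replicate block NPF1.2 and NPF2.13 had log2 changes of -0.023 and 0.046. NPF6.1 had -0.009 and -0.003 with pseudocounts of 0.1 and 0.5, -0.011 with median-of-ratios scaling and -0.036 with quantile normalization. Leaving out 1 library gave -0.023 to 0.314 for NPF1.2, -0.162 to 0.046 for NPF2.13, -0.246 to 0.421 for NPF4.3, -0.013 to 0.297 for NPF5.2, -0.33 to 0.118 for NPF5.8 and -0.109 to 0.088 for NPF5.9. It gave -0.109 to 0.164 for NPF5.13, -0.081 to 0.24 for NPF5.15, -0.288 to 0.288 for NPF6.1 and -0.048 to 0.337 for NPF7.2. At the estimated depth, members under 1 FPKM were not compared.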
